A study of Mus musculus with 14 samples.

Results

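The SOCS family and the tyrosine phosphatases of leptin signalling were described in granulosa cells (GCs) as 10 genes chosen by name. There were 7 genes of the SOCS family (Cish, Socs2, Socs3, Socs4, Socs5, Socs6 and Socs7) and 3 phosphatase genes (Ptpn1, Ptpn2 and Ptpn11), out of 55414 genes in the count table. Socs1, also of this family, was not on the list and is not described here. The list was chosen by function and not by a measured value, but with earlier results of these data known. All 10 genes were found in the table. Of these, 9 had enough counts to be tested, and Cish did not.

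RNA-seq was performed on GCs of antral follicles from female mice of 2 models of genetic obesity, kept on chow until 12 weeks of age. The db/db mice (4 libraries, strain B6.BKS(D)-Lepr db/J) are homozygous for a mutation that removes the long form of the leptin receptor, and the ob/ob mice (3 libraries, strain B6.Cg-Lep ob/J) are homozygous for a mutation in the leptin gene. Lean littermates served as controls, CT db (4 libraries) and CT ob (3 libraries). The sample labels give them as wild type (+/+) while the column names of the table read as heterozygous, so their genotype was not settled here. Both mutations are present in every cell of the body from birth, and the models differ in strain as well as in the mutated gene, 2 factors that cannot be told apart here. Each library came from about 50 cells, and no source used here ties a library to 1 animal. The p-values therefore measure the spread between libraries, part of which may be technical. Libraries are numbered within each group in the order of the table's columns, a number that only names them.

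Leptin binds its receptor on the cell surface and activates the kinase JAK2, which phosphorylates the receptor and the transcription factors STAT3 and STAT5. Several SOCS genes are transcribed in response to STATs, and SOCS proteins bind receptors or kinases through an SH2 domain and recruit a ubiquitin ligase through the SOCS box, which closes a feedback loop. Tyrosine phosphatases end the signal by removing phosphates from kinases, receptors and STATs. In the ovary these genes also serve the receptors for growth hormone, prolactin and interleukins. SOCS3 and the phosphatase encoded by Ptpn1 are the brakes most often named in leptin resistance.

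The promoters of Cish and Socs3, the listed family members best known as STAT targets, are shown because the feedback starts there. The RefSeq promoter table (GRCm38.p6) held 5 of the 10 genes, namely Cish, Socs3, Socs4, Ptpn1 and Ptpn11. The 250 bases before the start of each gene were searched for the letters TTCNNNGAA, a spacing that STAT proteins can bind. This motif is its own reverse complement, so both strands were read together, and no other motif was searched. Of 32851 such windows in the table, 7.02% held it. Among the 5 genes it was found in Socs3 only, with 1 match that began 154 bases before the start. The windows follow, 5′ to 3′ on the strand of the gene, for Cish at chr9:107296409-107296658 (plus strand) and for Socs3 at chr11:117969367-117969616 (minus strand), with the match in capitals.
Cish: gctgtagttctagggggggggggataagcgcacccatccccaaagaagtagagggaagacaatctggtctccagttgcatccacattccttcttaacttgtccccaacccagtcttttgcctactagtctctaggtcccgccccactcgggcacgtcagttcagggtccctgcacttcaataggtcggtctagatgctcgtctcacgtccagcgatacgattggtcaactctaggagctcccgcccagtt
Socs3: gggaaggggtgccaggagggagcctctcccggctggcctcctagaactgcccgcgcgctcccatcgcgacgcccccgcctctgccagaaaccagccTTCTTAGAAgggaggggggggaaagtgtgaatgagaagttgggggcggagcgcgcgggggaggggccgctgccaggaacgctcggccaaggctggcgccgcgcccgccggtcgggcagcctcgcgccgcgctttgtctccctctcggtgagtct
A match describes these letters and is not evidence of binding. The Cish window has none, which says nothing of STAT binding elsewhere at that gene. The bases G and C made up 71.6% of the Socs3 window and 55.2% of the Cish window.

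The libraries held 2204686 to 8367593 counts on genes. Db/db had the smallest libraries, with 2204686 to 3059777 counts, and ob/ob the largest, with 5306632 to 8367593. The control groups lay between them. The 11 GC markers (Fshr, Foxl2, Inha and others) were present in every library, with a summed level of 7981 to 16146 CPM (TMM-scaled, that is, relative to the library total after correction by edgeR's TMM factors). The 10 oocyte markers summed to 41.0 to 278 CPM in CT db, 57.9 to 97.7 in db/db, 89.2 to 1156 in CT ob and 200 to 779 in ob/ob. The 8 theca markers summed to 8.78 to 298 CPM, the 8 leukocyte markers to 2.1 to 25.4, the 7 endothelial markers to 3.76 to 43.2 and the 6 luteal markers to 217 to 1247. No 2 libraries had identical values.

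Socs2, which restrains growth hormone receptor signalling, was by far the most abundant of the 10 genes and had the smallest spread between libraries. In CT db its level was 870 CPM in library 1, 760 in library 2, 715 in library 3 and 744 in library 4. In db/db the libraries gave 812, 742, 681 and 794 CPM. In CT ob they gave 860, 727 and 823 CPM, and in ob/ob 726, 563 and 825 CPM. All 4 groups overlapped, and the second ob/ob library was the lowest of the 14. The means were 772 ± 67.7 CPM in CT db (SD, n = 4), 757 ± 59.1 in db/db (SD, n = 4), 803 ± 68.7 in CT ob (SD, n = 3) and 705 ± 133 in ob/ob (SD, n = 3). Db/db differed from CT db by a log2 fold change of 0.02 with a 95% interval of -0.27 to 0.30, and ob/ob from CT ob by -0.24 with an interval of -0.73 to 0.24. The interval in the db model thus spans folds of 0.832 to 1.23. The biological coefficient of variation, the spread between libraries of a group beyond counting error, was 15.7% for Socs2. The trend fitted over genes by their level was 22.6% at the level of Socs2, and the median over all tested genes 24.1%.

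Socs2 took most of the counts on the listed SOCS genes in every library. Its share of all counts on the 7 SOCS genes was 82.8% ± 0.81 in CT db (SD, n = 4), 81.9% ± 3.39 in db/db (SD, n = 4), 83.6% ± 1.30 in CT ob (SD, n = 3) and 78.0% ± 4.98 in ob/ob (SD, n = 3). The lowest share, 72.2%, was in the second ob/ob library. Only 100 of the 12586 tested genes had a higher mean CPM over the 14 libraries. On chromosome 10 (GRCm39, 95219523 to 95253929, minus strand) Socs2 shares 451 exon bases with the antisense non-coding gene 2310039L15Rik and 689 with 5730420D15Rik. These neighbours had 1 to 7 and 2 to 37 counts per library, against 1619 to 6476 for Socs2. The strand setting of the counting was not given in the sources used here, so reads in the shared bases cannot be assigned to either strand.

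**Figure D1:**
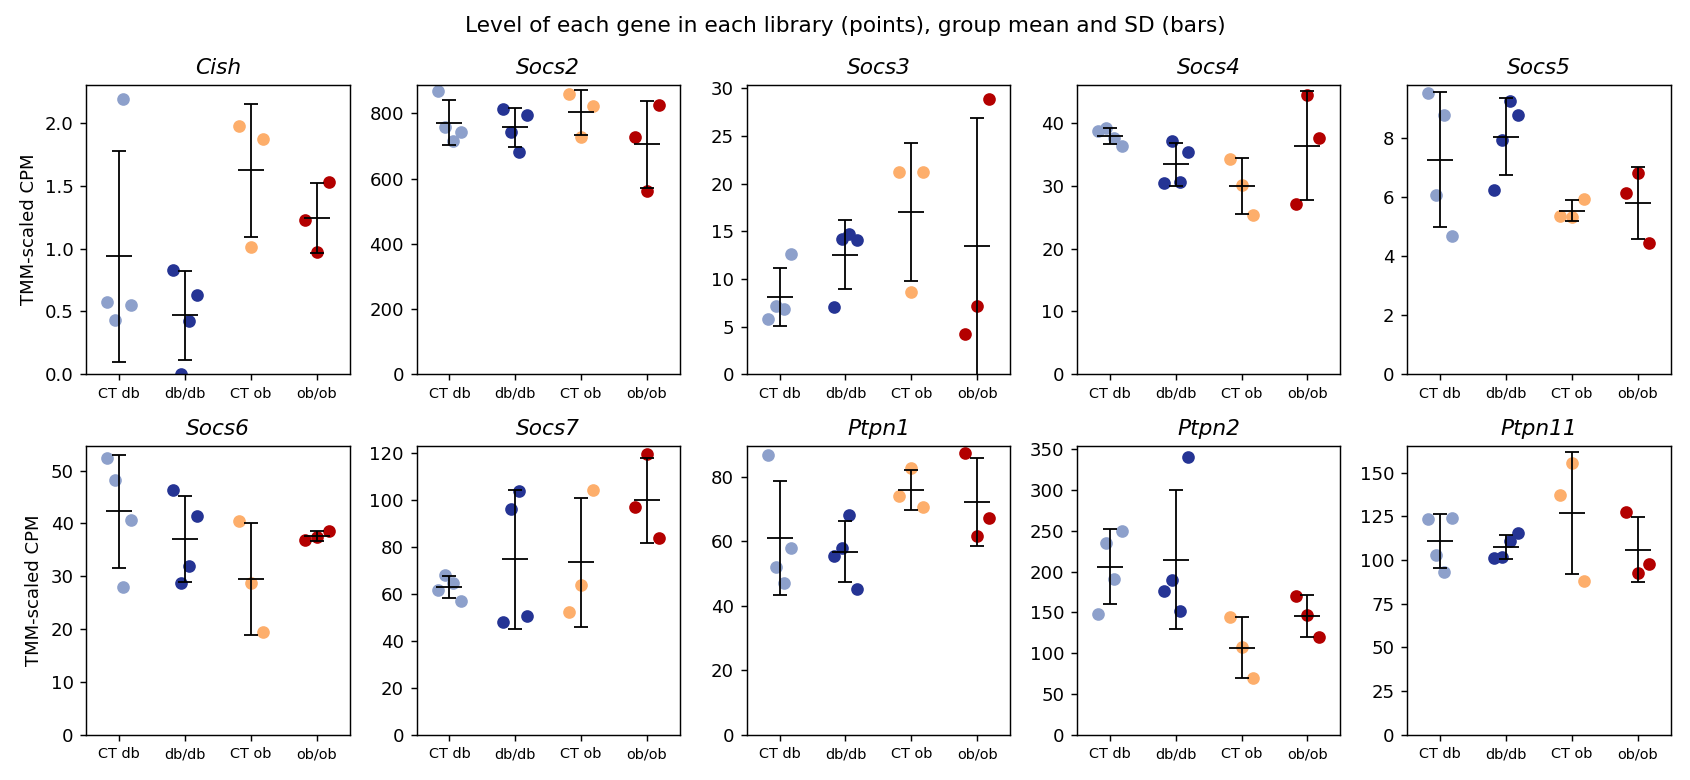
Level of each of the 10 genes in each library, as TMM-scaled CPM on a linear axis from 0 (points, 1 a library), with the group mean (middle bar) and SD (outer bars; where the SD exceeds the mean the bar stops at 0). Socs2 lies between 563 and 870 CPM in all groups, Socs3 spreads from 4.21 to 28.9 CPM, and Ptpn2 has all CT ob libraries below all CT db libraries.

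Socs3, the main feedback inhibitor of leptin and interleukin-6 type receptors, was low and the most variable of the 9 tested genes. It lies on chromosome 11 (GRCm39, 117856905 to 117860898, minus strand). In CT db the 4 libraries gave 5.78, 7.14, 6.87 and 12.7 CPM, and in db/db they gave 7.09, 14.2, 14.7 and 14.1 CPM. The highest 3 libraries of db/db lay above all of CT db, while the first lay within it, so the groups overlapped. The log2 fold change was 0.67 (SE 0.33, interval -0.05 to 1.38), and the adjusted p was 0.675 by the quasi-likelihood test of edgeR, adjusted over all tested genes by the Benjamini-Hochberg method. The interval runs from a fold of 0.967 to 2.61, so neither equality nor a 2-fold difference lies outside it.

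In the ob model Socs3 gave 21.2, 8.64 and 21.3 CPM in CT ob and 4.21, 7.11 and 28.9 CPM in ob/ob. The ob/ob group thus held both the lowest and the highest level of all 14 libraries. The log2 fold change of ob/ob against CT ob was -0.41 (SE 0.69, interval -1.99 to 1.17), with an adjusted p of 0.889 by edgeR. Without ob/ob library 3 it was -1.62. The mutant effect in the ob model minus that in the db model was -1.07 for Socs3 (interval -2.72 to 0.58, adjusted p 0.713 by edgeR), so the opposite signs in the models were not shown to differ. The counts behind these values were 17 to 46 in the libraries of the db model and 24 to 227 in those of the ob model. The biological coefficient of variation of Socs3 was 49.2%, against 35.4% for the trend at its level.

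Cish, a STAT5 target that restrains prolactin, growth hormone and erythropoietin receptors, was near the detection limit, set at 3 counts. It lies on chromosome 9 (GRCm39, 107173225 to 107179983, plus strand) and shares 479 exon bases with the antisense non-coding gene Gm17041, which had 0 counts in every library. Its counts were 2, 2, 8 and 2 in CT db, 2, 0, 1 and 2 in db/db, 10, 4 and 6 in CT ob and 7, 7 and 12 in ob/ob. In CPM this was 0.94 ± 0.84 in CT db (SD, n = 4), 0.47 ± 0.36 in db/db (SD, n = 4), 1.62 ± 0.53 in CT ob (SD, n = 3) and 1.24 ± 0.28 in ob/ob (SD, n = 3). All db/db libraries were under the detection limit, which corresponded to 0.941 to 1.26 CPM there. The CT db libraries with 2 counts were under it as well, and db/db had the smallest libraries. Each mutant group overlapped its own controls. The filter on low counts removed the gene from every comparison, so no fold or test is given. Reads carried no molecular identifiers, so this limit reflects counting error alone.

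Socs4 and Socs5, which act on the epidermal growth factor receptor, were far below Socs2 in level and passed the test in neither model. Socs4 gave 38.7, 39.2, 37.6 and 36.3 CPM in CT db and 30.4, 37.2, 30.7 and 35.4 CPM in db/db. In CT ob it gave 34.3, 30.2 and 25.3 CPM and in ob/ob 27.2, 44.5 and 37.6 CPM. The CT db libraries were the most alike, with a coefficient of variation of 3.36%, and 3 of the 4 db/db libraries lay below all of them while the second lay among them. Socs5 was at 7.27 ± 2.28 CPM in CT db (SD, n = 4), 8.05 ± 1.32 in db/db (SD, n = 4), 5.54 ± 0.35 in CT ob (SD, n = 3) and 5.81 ± 1.22 in ob/ob (SD, n = 3). The log2 fold changes in the db model were -0.14 for Socs4 (interval -0.45 to 0.17) and 0.20 for Socs5 (interval -0.47 to 0.87). The corresponding values of the ob model were 0.24 for Socs4 (interval -0.31 to 0.79) and 0.02 for Socs5 (interval -0.87 to 0.91).

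Socs6 and Socs7 bind insulin receptor substrates, among other partners. Socs6 gave 52.3, 48.3, 28.0 and 40.7 CPM in CT db and 46.3, 28.8, 32.0 and 41.4 CPM in db/db. It gave 40.4, 28.7 and 19.4 CPM in CT ob and 36.9, 37.5 and 38.6 CPM in ob/ob. The ob/ob libraries were nearly equal, with a coefficient of variation of 2.35%, while that of their controls was 35.7%, and the groups of each model overlapped. Socs7 gave 61.9, 68.2, 64.5 and 57.2 CPM in CT db and 47.9, 96.4, 104 and 50.8 CPM in db/db. The db/db libraries fell on both sides of their controls, with libraries 1 and 4 below all CT db libraries and libraries 2 and 3 above all of them. In the ob model Socs7 gave 52.3, 63.8 and 104 CPM in CT ob and 96.9, 119 and 83.7 CPM in ob/ob. The log2 fold changes were -0.15 for Socs6 (interval -0.62 to 0.33) and 0.29 for Socs7 (interval -0.25 to 0.82) in the db model. For ob/ob against CT ob they were 0.32 for Socs6 (interval -0.26 to 0.90) and 0.38 for Socs7 (interval -0.35 to 1.10).

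Ptpn2, whose product dephosphorylates JAK1, JAK3 and nuclear STATs, had the highest mean of the 3 phosphatase genes per length of exon over all 14 libraries, but not in CT ob, where Ptpn11 was higher. In CT db it gave 148, 235, 191 and 250.1 CPM, and in db/db 176, 189.9, 152 and 341 CPM. In CT ob it gave 144, 107 and 69.1 CPM, and in ob/ob 170.1, 147 and 119 CPM. The fourth db/db library was the highest of the 14 and the third CT ob library the lowest. Each mutant group overlapped its own controls, with a log2 fold change of 0.09 in the db model (interval -0.44 to 0.63) and of 0.42 in the ob model (interval -0.17 to 1.01, adjusted p 0.694 by edgeR). Without the fourth db/db library the value in the db model was -0.20.

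Ptpn1, on chromosome 2 (GRCm39, 167773944 to 167821309, plus strand), encodes the phosphatase that dephosphorylates JAK2 below the leptin receptor. It gave 86.7, 52.2, 47.0 and 58.1 CPM in CT db and 55.4, 58.0, 68.1 and 45.2 CPM in db/db. It gave 73.9, 82.8 and 70.7 CPM in CT ob and 87.4, 61.5 and 67.3 CPM in ob/ob. The first CT db library stood above the rest of the db model, and the groups overlapped in both models. The log2 fold change was -0.06 in the db model (interval -0.50 to 0.39) and -0.12 in the ob model (interval -0.57 to 0.33). Ptpn11, on chromosome 5 (GRCm39, 121268596 to 121329496, minus strand), encodes a phosphatase that docks on the activated leptin receptor and carries the signal to the ERK kinases, so it is not a brake alone. Its level was 111 ± 15.3 CPM in CT db (SD, n = 4), 107 ± 6.96 in db/db (SD, n = 4), 127 ± 34.9 in CT ob (SD, n = 3) and 106 ± 18.7 in ob/ob (SD, n = 3). The log2 fold change of Ptpn11 was -0.00 in the db model (interval -0.29 to 0.29) and -0.29 in the ob model (interval -0.82 to 0.23).

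Levels of different genes were compared per kilobase of exon, with all annotated exons of a gene merged (GRCm39). The order of the mean over the 14 libraries was Socs2 at 49.8 CPM per kb, Ptpn2 at 20.3, Ptpn11 at 14.3, Socs7 at 9.78, Ptpn1 at 5.22, Socs4 at 5.02, Socs3 at 3.49, Socs6 at 3.12, Socs5 at 0.917 and Cish at 0.159. Socs2 exceeded Ptpn2 in 14 of 14 libraries, although the ranges of 36.9 to 57.0 and 8.04 to 39.6 CPM per kb touched. Socs7 also exceeded Ptpn1 in 14 of 14 libraries. Ptpn1 and Socs4 could not be ordered, since Ptpn1 was the higher in 7 of 14 libraries, and Socs3 was higher than Socs6 in 8 of 14. Ptpn2 exceeded Ptpn11 in 11 of 14 libraries, and the other 3 were the CT ob libraries, where Ptpn2 averaged 12.4 and Ptpn11 16.1 CPM per kb. Ptpn11 exceeded Socs7 in 12 libraries and Socs4 exceeded Socs3 in 11. Only Socs5 and Cish had ranges that lay fully below those of the gene before them. Per length, 95.32% of the 12555 tested genes with a known length lay below Socs2, against 86.67% for Ptpn2, 42% for Socs3 and 13.46% for Socs5. With coding length or the length of the canonical transcript in place of merged exons, the first 3 places and the last 2 stayed as they were, and Socs3, Socs4, Socs6, Socs7 and Ptpn1 exchanged places.

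**Figure D2:**
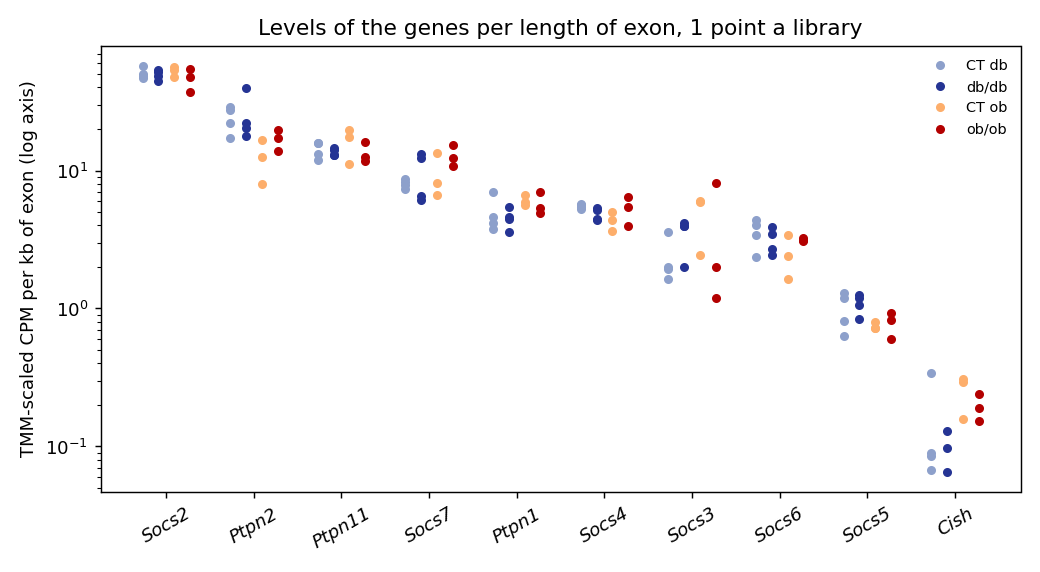
Level of the 10 genes per kilobase of merged exon (TMM-scaled CPM per kb, log axis), 1 point a library, coloured by group and ordered by the mean over 14 libraries. The 1 db/db library with 0 counts of Cish cannot be drawn on a log axis. Socs2 is the highest gene in every library and Cish the lowest, and the genes between them from Ptpn1 to Socs6 overlap.

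The question whether loss of the leptin receptor or of leptin changes the brakes of leptin signalling was addressed by comparing each mutant with its own controls. In the db model 0 of the 9 tested genes passed an adjusted p of 0.05 in edgeR's quasi-likelihood test, where 0.00884% of the 11317 genes tested did. In the ob model 0 of 9 passed, where 0% of 12425 genes did. DESeq2 also called 0 of the 9 in either model, and 0 of 9 had an unadjusted p under 0.05, against 7.59% of all tested genes in the db comparison and 8.16% in the ob comparison. The smallest adjusted p among the 9 was 0.675 in the db model (Socs3) and 0.694 in the ob model (Ptpn2). No gene of the 9 had groups that did not overlap, where this held for 4.43% of all genes in the first model and 15.1% in the second. The median size of the log2 fold change was 0.14 over the 9 genes in the db model, against 0.18 over all tested genes. For ob/ob against CT ob it was 0.29 against 0.27. In the db model 5 of the 9 values were above 0 and 4 below, and the same split was seen in the ob model. The interaction term, which tests whether the mutant effects differ between the models, called 0 of the 9 genes and 0% of 12586 genes, with a smallest adjusted p of 0.688 for Socs4 (log2 difference 0.38, interval -0.14 to 0.90). Of the 9 genes, 0 had an unadjusted p under 0.05 for the interaction, against 8.11% of all tested genes. DESeq2 called 0 of the 9 for the interaction, where it called 72 of 11842 genes.

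These intervals set what could have been missed. In the db model a 2-fold difference lay outside the intervals of Socs2, Socs4, Socs5, Socs6, Socs7, Ptpn1, Ptpn2 and Ptpn11, which all lay between -0.62 and 0.87 on the log2 scale. In the ob model, with fewer and more variable libraries, they reached 1.10 for Socs7 and 1.01 for Ptpn2. For Socs3 they ran from -1.99 to 1.17, or from a fold of 0.253 to 2.25. The level of a transcript also says nothing of the amount of protein or of its phosphorylation, which were not analysed here.

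**Figure D3:**
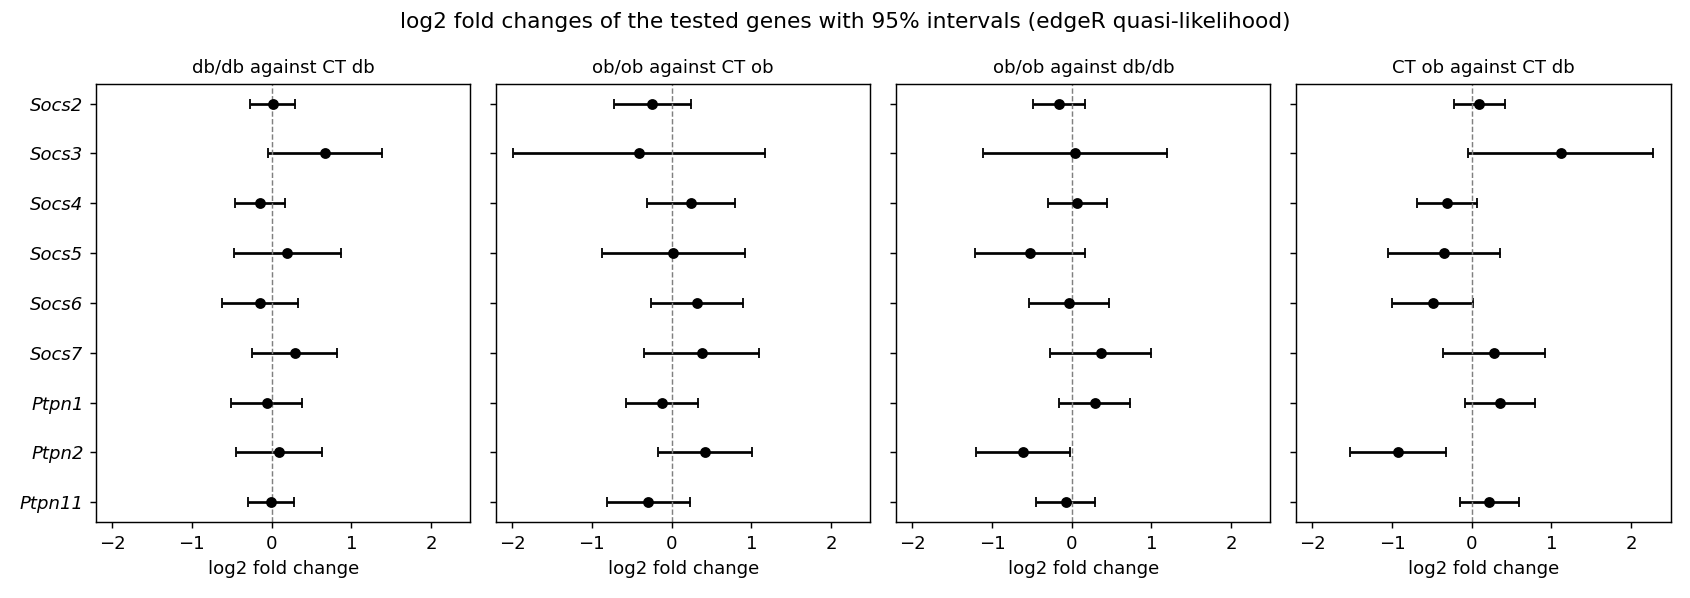
The log2 fold changes of the 9 tested genes in 4 comparisons (points) with their 95% intervals (bars) from edgeR's quasi-likelihood fits. In the panels of db/db against CT db and ob/ob against CT ob all intervals include 0 and that of Socs3 is the widest, while in the panel of CT ob against CT db the interval of Ptpn2 runs from -1.53 to -0.33.

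The groups were also compared across models, which share the strain difference named above. Ob/ob against db/db gave 0 of 9 genes past the threshold, where 0.0159% of 12586 genes passed, and DESeq2 called 0 of the 9 as well. Of the 9, 1 had an unadjusted p under 0.05, against 8.18% of all genes. This was Ptpn2, with a log2 fold change of -0.61 (SE 0.28, interval -1.20 to -0.02) and an adjusted p of 0.591 by edgeR. Its ob/ob libraries overlapped those of db/db at 152 to 170.1 CPM, and without the fourth db/db library the value was -0.31. No gene of the 9 had mutant groups that did not overlap, where 10.2% of all genes did. The oocyte markers were compared between the same groups. All 10 were higher in ob/ob, 9 of them at an unadjusted p under 0.05 and none called, with a median log2 fold change of 3.47. Their summed level did not overlap, with 200 to 779 CPM in ob/ob and 57.9 to 97.7 in db/db, and 0 to 3 of the 10 were at 0 in a db/db library against 0 in each ob/ob library. Their part in the Ptpn2 value was not tested.

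Between the lean controls, CT ob against CT db, 6.63% of 12586 genes passed the threshold in the fit of 14 libraries, and 0 of the 9 genes did. The share over all genes rests on that fit, since a fit of the 2 control groups alone called 3 genes, and a fit of the 2 mutant groups alone 4. Of the 9, 1 had an unadjusted p under 0.05 where 26.9% of all genes did. Ptpn2 was again this gene, with 107 ± 37.4 CPM in CT ob (SD, n = 3) against 206 ± 46.1 in CT db (SD, n = 4). Its log2 fold change was -0.93 (SE 0.28, interval -1.53 to -0.33), a fold of 0.526, and the adjusted p was 0.0589 by edgeR. DESeq2 gave an adjusted p of 0.0171 and called the gene. All 3 CT ob libraries lay below all 4 CT db libraries, 144 CPM being the highest of the first and 148 the lowest of the second. Among the 9 genes 2 had control groups that did not overlap, Ptpn2 and Socs4, both lower in CT ob, where 20.2% of all tested genes did not overlap. This share of the members is close to that of all genes.

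Socs4 differed by -0.31 between the controls (interval -0.68 to 0.06, adjusted p 0.264 by edgeR). Socs3 had the largest difference in size, 1.11 (SE 0.55, interval -0.05 to 2.28), with an adjusted p of 0.204 by edgeR and overlapping groups. Socs6 differed by -0.49 (interval -0.999 to 0.02, adjusted p 0.202 by edgeR) and Ptpn1 by 0.35 (interval -0.09 to 0.79). Socs2 differed by 0.10 (interval -0.23 to 0.42), the narrowest interval of the 9 in this comparison. The median size of the difference over the 9 genes was 0.35 against 0.37 over all genes.

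The share of Ptpn2 among the counts on the 3 phosphatase genes followed the same division. This share rests on the same Ptpn2 counts and is no separate check. It was 54.3% ± 8.74 in CT db (SD, n = 4), 55.3% ± 9.24 in db/db (SD, n = 4), 34.0% ± 5.66 in CT ob (SD, n = 3) and 45.0% ± 3.5 in ob/ob (SD, n = 3). All CT ob shares, 30.4% to 40.5%, were below the lowest of CT db, 41.3%. Markers of other cells were compared between the same groups, and none of these was called. The summed theca markers overlapped, with 20.6 to 91.7 CPM in CT ob and 13.9 to 50.9 in CT db. So did the leukocyte markers (3.37 to 22.9 against 4.05 to 9.63) and the luteal markers (217 to 1247 against 219 to 1178). All 10 oocyte markers were higher in CT ob than in CT db, with a median log2 fold change of 2.06 and none called, and 5 of the 10 had an unadjusted p under 0.05. The summed level was 89.2 to 1156 CPM in CT ob against 41.0 to 278 in CT db, and 0 to 4 of the 10 markers were at 0 in a CT db library against 0 in each CT ob library. The 7 endothelial markers summed to 9.70 to 43.2 CPM in CT ob and 3.76 to 9.34 in CT db, which did not overlap, and 0 to 2 of them were at 0 in a CT ob library against 1 to 3 in CT db. Of the 2 that could be tested 0 were called and 1 had an unadjusted p under 0.05. Of the 11 GC markers, 1 was called between the controls, Fshr, with a log2 fold change of -1.72 (adjusted p 0.0163 by edgeR). This call was not followed through the other settings. The GC markers did not move together, since 5 of the 11 were higher in CT ob, with a median log2 fold change of -0.16. Of the 11, 4 had an unadjusted p under 0.05 by edgeR, where 26.9% of all tested genes did and 6.63% were called. The part of all these markers in the Ptpn2 difference was not tested. In samples of many cells, fewer cells of a type and less RNA per cell cannot be told apart.

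Other genes of the pathway were taken from lists by function. Lepr itself had 1 to 6 counts in CT db, 0 to 3 in db/db, 3 to 12 in CT ob and 4 to 17 in ob/ob. It was tested in the ob model only, with a log2 fold change of -0.38 (interval -2.31 to 1.56) and an adjusted p of 0.922 by edgeR. The db mutation changes the splicing of the long form, which counts per gene do not resolve, so these counts do not check the labels. Of the list of the leptin receptor and JAK-STAT signalling, 18 of 19 genes were tested in the db model and 0 passed in either direction, with a median log2 fold change of -0.04. All 19 were tested in the ob model and 0 passed, with a median of -0.11. The medians over all tested genes were 0.01 and -0.04. The STAT-responsive genes, transcribed downstream of STATs in other cells, had 0 of 13 past the threshold in the db model (median 0.13) and 0 of 12 in the ob model (median -0.00). Cytokine receptors that use JAK kinases (9 tested), SOCS box ubiquitin ligase partners (8 tested) and other negative regulators of JAK-STAT signalling (12 tested) also had 0 past the threshold in either model. At an unadjusted p under 0.05 there were 1, 3, 0, 0 and 1 genes in the db model, and 3, 0, 1, 0 and 0 in the other, for the signalling, receptor, ligase, regulator and STAT-responsive lists in this order. Together these were 5 of 60 and 4 of 60 genes (8.33% and 6.67%), near the 7.59% and 8.16% of all tested genes. None of the 5 lists had a gene past the threshold between the mutants or in the interaction either. At an unadjusted p under 0.05 there were 0, 2, 0, 1 and 0 genes between the mutants and 1, 1, 1, 1 and 0 in the interaction. Together these were 3 of 60 and 4 of 60 genes (5% and 6.67%), below the 8.18% and 8.11% of all tested genes.

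Between the lean controls 3 of the 60 tested genes of these lists passed, or 5%, a share near the 6.63% of all genes. Each came from another list and is given for its values, not as a trait of the pathway. Ifngr1, a chain of the interferon gamma receptor and 1 of 9 tested receptors, gave 53.5, 67.1, 61.0 and 79.0 CPM in CT db and 29.5, 35.3 and 25.7 CPM in CT ob. It fell by 1.08 on the log2 scale in CT ob against CT db (SE 0.19, adjusted p 0.00986 by edgeR). Eloc, the elongin subunit through which the SOCS box reaches its ligase and 1 of 8 tested partners, gave 171, 219, 190.1 and 176 CPM in CT db and 125, 134 and 133 CPM in CT ob. It fell by 0.49 (SE 0.14, adjusted p 0.0481 by edgeR). Pias4, which attaches SUMO to STATs and other factors and was 1 of 12 tested regulators, gave 25.4, 18.8, 30.5 and 23.4 CPM in CT db and 40.2, 37.6 and 45.4 CPM in CT ob. It rose by 0.78 (SE 0.19, adjusted p 0.0293 by edgeR). The control groups did not overlap for any of the 3, where 20.2% of all tested genes did not overlap. The 3 were picked by their test in this same comparison, so this is no separate check. The signalling list had 0 of 18 past the threshold between the controls, with a median of 0.02, and the STAT-responsive list 0 of 13, with a median of 0.31, against 0.06 over all genes. In a fit of the 2 control groups alone, with the spread estimated from 7 libraries, the adjusted p-values became 0.0543 for Ifngr1, 0.119 for Eloc and 0.0978 for Pias4, and all calls were lost. Eloc also lost its call when any 1 of 6 libraries was left out (adjusted p up to 0.129) and Pias4 with any 1 of 4 (adjusted p up to 0.106), while Ifngr1 kept it without any 1 of the 7 (adjusted p up to 0.0399). Eloc further lost it with upper quartile scaling (adjusted p 0.0651), library size only (0.0930), no filter (0.142) and a robust fit (0.0503), and Pias4 with library size only (0.0525) and no filter (0.0684), all by edgeR.

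**Figure D4:**
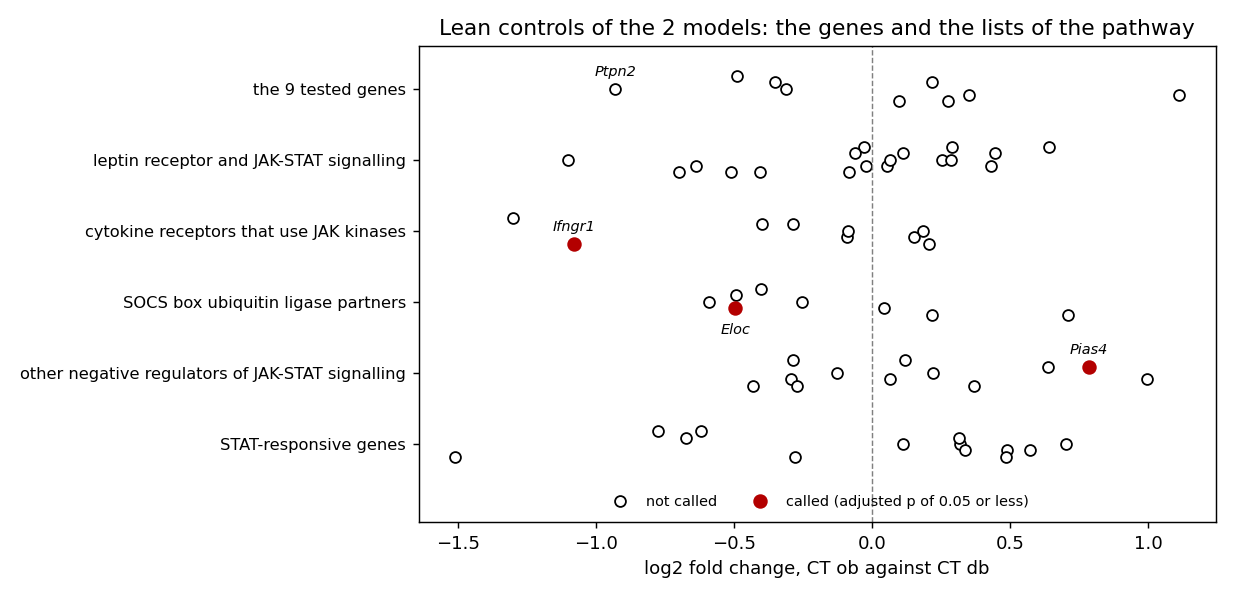
The log2 fold change of CT ob against CT db for the 9 tested genes and for the tested genes of 5 pathway lists (1 point a gene; the height within a row only separates points). Filled points passed an adjusted p of 0.05 in the fit of 14 libraries, namely Ifngr1 and Eloc lower in CT ob and Pias4 higher, while Ptpn2 at -0.93 did not.

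The genes whose log2 CPM moved most alike with each tested SOCS gene were sought among 9642 genes with at least 10 counts in every library. The points were the 14 libraries of all groups, which fall into the 4 groups and differ in depth between them, so the values are a description. Bid, a pro-apoptotic protein of the BCL2 family, was the nearest to Socs2 with a Pearson r of 0.942 (Spearman rho 0.89). It ranged from 7.11 CPM in the second ob/ob library, where Socs2 was also lowest, to 31.2 CPM in the first CT db library, where Socs2 was highest. Proser1 was the nearest to Socs3 with an r of 0.849 (rho 0.837), and Hspa13, a heat shock protein, the nearest to Socs4 with 0.867 (rho 0.916). Ufm1, a ubiquitin-like modifier, was nearest to Socs5 with 0.779 (rho 0.798), the lowest of the 6 values. 9330151L19Rik was nearest to Socs6 with 0.95 (rho 0.899) and Pi4k2a, a phosphatidylinositol kinase, to Socs7 with 0.924 (rho 0.934). With the group means removed, r was 0.952 for Socs2, 0.873 for Socs3, 0.804 for Socs4, 0.74 for Socs5, 0.94 for Socs6 and 0.941 for Socs7. These values come from the same libraries that picked the genes and are no separate check.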

How the data were processed

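RNA-seq was analysed in 14 libraries of GCs. Per the paper's methods, the authors processed single reads of 75 bp with cutadapt 1.18 (trimming), STAR 2.7.10a (mapping, GRCm39) and featureCounts 2.0.1 (counting per gene). The submitters' processing notes name Trim Galore 0.6.2, HISAT2 2.1.0 and GRCm38 instead, and this was not settled. The deposited table held raw counts per gene. Libraries were made from 100 to 200 pg of cDNA. The columns were assigned to groups by model and genotype in their names, and no column was left out. Of 55414 identifiers, 54749 had a symbol and position in the GENCODE annotation (GRCm39). Coordinates of genes are GRCm39 and promoter windows GRCm38.p6.

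TMM factors, CPM and quasi-likelihood tests were computed from these counts with edgeR 4.0.16 (R 4.3.3). The filter on low counts was filterByExpr (minimum count 10, minimum total 15), and an adjusted p of 0.05 or less was called. Each model was fitted on its own, and 1 fit of 14 libraries served the comparisons across models and the interaction. No factor other than the group entered a fit. Intervals are 95% intervals of edgeR's log2 fold changes, and a prior count of 2 was added for log2 CPM. Tests were run on simulated data first. The genes named were the 10 genes, Lepr, pathway genes past the threshold (at most 4 per list) and the gene most alike to each tested SOCS gene. The 10 genes, the lists and the marker sets were chosen with earlier results of these data known. Alternatives were DESeq2 1.42.0, other scalings, filters and fits, downsampling, removal of Rn18s-rs5, an 18S ribosomal RNA gene, and leaving out each library. The length of the canonical transcript was an alternative chosen after seeing the data.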

Additional observations from a re-analysis of the deposited data

Results flagged for a closer look

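Of 20 combinations of a gene and a group with 4 libraries, 2 had a library far from the others, with a gap to the nearest library, as a part of the range of the group, above Dixon's 95% critical value for 4 samples. Chance alone gives about 1 in 20. Cish in CT db had a gap of 0.918 of the range, since the third library held 8 counts (2.2 CPM) and the others 2 counts each (0.433 to 0.578 CPM). Socs3 in db/db had a gap of 0.921 of the range, since the first library was at 7.09 CPM and the others between 14.1 and 14.7 CPM. Without that library the log2 fold change of Socs3 against CT db was 0.86 and the adjusted p 0.338 by edgeR, so the gene was not called with or without it. Groups of 3 libraries were not tested in this way.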

How the results depend on the processing

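No paired analysis was possible because the columns of the table carry no replicate number of the labels. Among the alternatives, the count of the 9 genes called stayed at 0 in every setting for both models, for the mutants and for the interaction. Between the controls it was 1, Ptpn2, with DESeq2, without a filter (adjusted p 0.000671) and with at least 10 counts in every library (adjusted p 0.0484), and it lay between 0 and 1 when single libraries were left out. The 1 came without CT db library 1 (log2 fold change -1.06, adjusted p 0.0354). Over all 7 libraries left out the adjusted p of Ptpn2 lay between 0.0354 and 0.191, and over the other alternatives between 0.000671 and 0.124. The causes were not tested.

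Values near 0 changed sign in single settings, none of them called. With library size only, the log2 fold change became 0.0071 for Ptpn1 and 0.065 for Ptpn11 in the db model and -0.00043 for Socs3 between the mutants. Without a filter it became -0.014 for Socs2 in the db model, 0.020 for Socs6 between the mutants and 0.031 for Ptpn1 in the interaction. In 1 fit of 14 libraries it was 0.000732 for Ptpn11 in the db model. After downsampling it was -0.023 for Socs4 and 0.000321 for Socs6 between the mutants.

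Leaving out single libraries also turned signs. In the db model the ranges were -0.026 to 0.069 for Socs2, -0.17 to 0.15 for Ptpn1, -0.20 to 0.22 for Ptpn2 and -0.085 to 0.056 for Ptpn11. For ob/ob against CT ob they were -1.62 to 0.016 for Socs3 and -0.12 to 0.19 for Socs5. Between the mutants they were -1.18 to 0.46 for Socs3, -0.11 to 0.24 for Socs4 and -0.13 to 0.090 for Socs6. Between the controls Socs7 ranged from -0.15 to 0.50. In the interaction Socs7 ranged from -0.13 to 0.53 and Ptpn1 from -0.27 to 0.060. Uncalled values that kept their sign also moved by over 1.5 times, among them Socs5 in the db model (0.039 to 0.34), Socs7 (0.16 to 0.80) and Ptpn2 (0.23 to 0.65) in the ob model, and Socs3 in the interaction (-2.29 to -0.65).

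Over all genes, CT ob against CT db had 834 calls, 1563 with DESeq2, 1727 without a filter, 261 with library size only, 3 in a fit of the 2 groups alone, and 112 to 1196 without single libraries. Of these, 282 of 834 were higher in CT ob, and 352 of 786 with upper quartile scaling. DESeq2 called 44 genes in the db model, 86 in the ob model, 72 between the mutants and 72 in the interaction, against 1, 0, 2 and 0 by edgeR, and without a filter edgeR called 270, 359, 535 and 329. Of 120 group levels under other scalings, 114 moved by less than the SD. Depth limits Cish most, with 0 to 12 counts, and Socs3 and Socs5, with as few as 17 and 15 counts in a library.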

Other observations

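The genes nearest in pattern to the phosphatases, named after their values were seen, were Rcbtb2 for Ptpn2, Myo5c for Ptpn1 and Cyth3 for Ptpn11. Over the 14 libraries the Pearson r of log2 CPM was 0.96 between Rcbtb2 and Ptpn2 (Spearman rho 0.943), 0.875 between Myo5c and Ptpn1 (rho 0.846) and 0.887 between Cyth3 and Ptpn11 (rho 0.851), as a description over libraries that fall into 4 groups and differ in depth. Rcbtb2 was at 117 ± 8.97 CPM in CT db (SD, n = 4), 128 ± 18.7 in db/db (SD, n = 4), 88.8 ± 17.4 in CT ob (SD, n = 3) and 104 ± 9.85 in ob/ob (SD, n = 3). All its CT ob libraries (up to 105.0 CPM) lay below all CT db libraries (from 105.5 CPM). The control groups did not overlap for 20.2% of all tested genes. Rcbtb2 was picked for its likeness to Ptpn2 in these same libraries, so its division is no separate check.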
